A study of Mus musculus with 6 samples.

Results

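Serpins are a family of protease inhibitors, and the 56 described here are the genes whose symbol in the array files begins with Serpin, a clade letter from a to i and a number. They were chosen by name from 19194 gene symbols, and each is represented by the probe named by that symbol with the highest mean signal over the arrays. RNA of abdominal adipose tissue was measured in C57BL/6 mice. They began a high-fat diet at 6 weeks of age and were operated on after 12 weeks of it, so both groups carry the diet and an abdominal operation. The DJB group (duodenal-jejunal bypass) received a biliopancreatic limb of 5 cm and a Roux limb of 4 cm. In the Sham group the intestine was cut and sutured back in place. Each group has 3 arrays with a single dye, and the labels give neither the age at sampling, the fat depot, nor whether an array holds 1 mouse or several. P-values therefore measure only the spread between these samples, which may be technical.

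A serpin exposes a reactive centre loop that a protease cuts as if it were a substrate. The cut loop then inserts into the body of the inhibitor and traps the protease in a covalent complex, which receptors such as Lrp1 clear. Clade A genes encode mostly secreted plasma proteins made in liver, among them the alpha-1-antitrypsins (Serpina1) and antichymotrypsins (Serpina3), and mice carry several copies of both. Clade B genes encode serpins without a classical signal peptide that guard the cytoplasm against granule and lysosomal proteases. The other clades hold antithrombin (Serpinc1), heparin cofactor II (Serpind1), PEDF (Serpinf1), the C1 inhibitor (Serping1) and collagen-specific chaperone HSP47 (Serpinh1), and PEDF is well known as a product of fat tissue.

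The probes that carry the 6 differences that passed the test are shown first. The opening 30 bases of each probe of 60 bases are given as the array files list them.
Serpina1d: tgaccaccctaagaagtcatccttccttct
Serpina3a: cttctatcctctgattggctaggatatgct
Serpinb1b: agcatgaccaaacttgtgctagtgaatgcc
Serpinb6a: cctatattggagagatattcactaagattc
Serpinb6d: aatatcttccaagcaagacttgtttctgtc
Serpinb8: tgcaggaaacacatcaatgactgggtgtcg

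The copies of alpha-1-antitrypsin cannot be assumed to be read separately, because their probes are nearly alike. The stretches below begin at a run of bases common to these probes, and capitals mark bases unlike those of the Serpina1d probe at the same place, compared without gaps. The Serpina1d stretch is from the probe that stands for the gene, and the others are from additional probes that the files name only by a RefSeq accession.
Serpina1d: tctgaattgggttcccttcattaaacacag
Serpina1b: tctgaattgggttccTtCcattaaacac
Serpina1c: tctgaattgggttccTtCcattaaacacag
Serpina1e: tctgaattgggttccTttcCAtTaaACAC
The Serpina1b and Serpina1c stretches differ from Serpina1d at 2 bases and the Serpina1e stretch at 8. The count of 8 includes bases that the ungapped comparison puts out of register. The longest run shared with the Serpina1d probe was 42 bases for Serpina1e, and 27 bases for both Serpina1b and Serpina1c. Over the 58 bases that the Serpina1b and Serpina1c probes share, 57 are identical. Among all serpin probes, 20 pairs that belong to different genes share a run of at least 20 bases, and these pairs involve 16 genes, 12 of them among the 56. Of the symbol-named probes only those of Serpina1d and Serpinb3b are in such a pair. The other pairs are between accession-named probes, so the copy is uncertain for Serpina1d, and for accession-named values of Serpina1b, Serpina1c, Serpina1e, Serpina3c, Serpina3k, Serpina3m, Serpina3f and Serpina3i.

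A level is given throughout as the log2 processed intensity minus the array's 75th percentile, and a difference as the DJB mean minus the Sham mean on that scale, with the standard error of the limma fit. Probes differ in how strongly they bind, so a level is compared between arrays and never between genes. A gene was tested where at least 3 of the 6 arrays had its probe well above background, and it passed the test where the adjusted p, over all 99431 probes tested, was under 0.05. Across the arrays, 62.6% to 68.82% of probes were well above background and none was saturated, and the number of arrays limits the precision. The adipocyte markers were all measured, with Adipoq (adiponectin) at 9.03, 8.59 and 8.94 in Sham and 6.96, 7.94 and 8.3 in DJB and Fabp4 at 9.55 to 10.07 on the 6 arrays. Replicates 1 and 3 of Sham and 1 and 2 of DJB lay on a first slide, and the other 2 arrays on a second.

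Of the 56 serpin genes 38 were tested, 15 were well above background on none of the arrays, and 3 more (Serpina5, Serpinb9f and Serpinb9g) were measured on too few. Of all 16164 genes tested, 7.01% passed the test, 2.11% with higher and 4.9% with lower levels in DJB. With normexp background correction lower genes were 59.4% of the calls (1060 higher and 1551 lower), and with median scaling 59% (361 and 520). In the main fit they were 69.9% (341 and 792). Against this background 4 of the 38 serpins were higher in DJB (Serpinb1b, Serpinb6a, Serpinb6d and Serpinb8) and 2 were lower (Serpina1d and Serpina3a). The Serpina3a probe met the filter through the Sham arrays alone. The 3 DJB values lay apart from the 3 Sham values in 19 of the 38, 9 higher and 10 lower, where 45.1% of all genes tested did so, 25.4% higher and 19.7% lower. The share of serpins with separate groups was thus near that of all genes. The median difference of the 38 was -0.13, beside 0.05 for all genes, and median scaling moves the latter to 0.15.

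**Figure D1:**
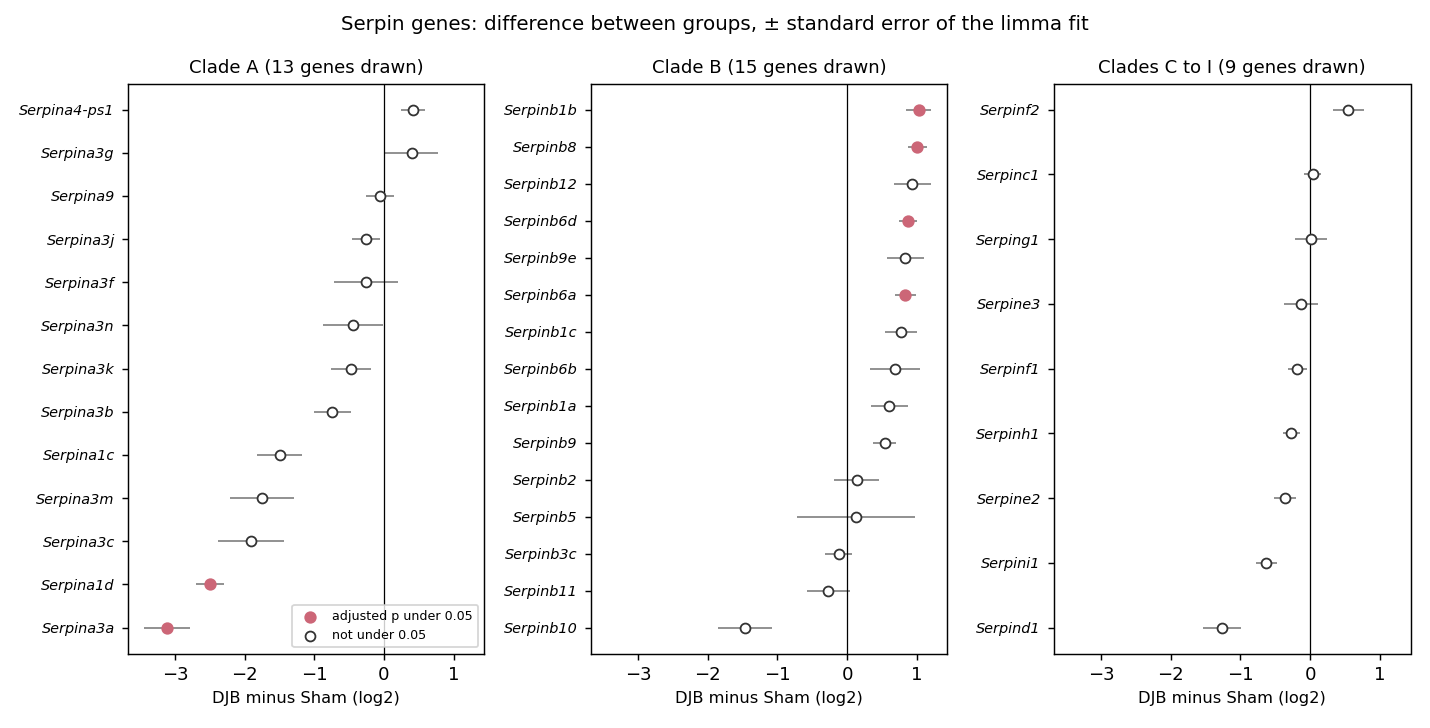
Difference between the DJB and Sham means (log2, horizontal axis) for 37 serpin genes tested, in 3 panels by clade. Bars are ± the standard error of the limma fit, and filled points passed the test. In clade A 11 of 13 points lie below 0, and in clade B 12 of 15 lie above it.

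Clade A and clade B lay on opposite sides of 0. Of the 20 clade A genes 13 were tested, 2 fell and none rose (1 and 6 at an unadjusted limma p under 0.05, higher and lower), 11 of the 13 differences were negative, and their median was -0.47. Of the 25 clade B genes 15 were tested, 4 rose and none fell (8 and 1 at an unadjusted p under 0.05), 12 differences were positive, and their median was 0.69. Quantile scaling, median scaling and the authors' log2 values left 10 of the 13 clade A differences negative and 12 of the 15 clade B differences positive. With normexp background correction 8 of the 13 were negative, with a median of -0.12, and 13 of the 15 were positive, with a median of 0.57. Normexp here added an offset of 50 to each corrected intensity, beside 75th percentiles of 132 to 183.7. Such an offset draws the differences of dim probes toward 0. The members of a clade share arrays, and neighbouring copies partly share probe sequence, so these counts describe the genes and are not replicates. In the same limma fit the adipocyte gene Cidec had an unadjusted p of 0.0495 and an adjusted p of 0.176. Unadjusted values under 0.05 were therefore common among all probes. Counts of them, here and below, lack the share of all genes and are not read as an excess.

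Serpina1d, a mouse alpha-1-antitrypsin and inhibitor of neutrophil elastase, had the lowest adjusted p among the genes by their symbol-named probes. Its level was 1.91, 1.21 and 1.61 in Sham and -1, -0.81 and -0.98 in DJB. The groups were far apart, with every DJB array below every Sham array. The difference was -2.50 ± 0.2 (SE, 3 against 3 arrays), a 5.66-fold lower level (limma, adjusted p = 0.00941). With the slide as a block the adjusted p was 0.0197, and within the first slide, 2 arrays against 2, the difference was -2.66 with an adjusted p of 0.0605. It was -2.18 between the 2 arrays of the second slide.

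Additional probes named only by accession read the whole group of alpha-1-antitrypsin copies. Serpina1a stood at -0.87, -1.21 and -1.19 in Sham and -3.69, -3.77 and -3.13 in DJB, a difference of -2.44 (adjusted p = 0.0114). Serpina1b gave -2.40 (adjusted p = 0.00826) and Serpina1e -2.52 (adjusted p = 0.00694). All 3 passed the test, although for the last 2 the resemblance of the probes leaves the copy uncertain. Whether the Serpina1a probe reads only that copy was not tested. Serpina1c, whose symbol-named probe stood at -2.67, -3.4 and -3.27 in Sham and -5.18, -4.13 and -4.51 in DJB, differed by -1.50 (SE 0.32) and did not pass (adjusted p = 0.0531). Its difference was -0.12 with normexp. That probe was well above background on 2 of the 3 DJB arrays. Its accession-named probe, with the stretch printed above, stood at 2.08, 1.44 and 1.73 in Sham and -0.78, -0.92 and -1.09 in DJB and passed the test (-2.68, adjusted p = 0.00761).

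The 100 bases before the annotated start of the 5 alpha-1-antitrypsin copies are printed because probes assigned to each of them fell, whichever copies those probes read. They come from RefSeq (GRCm38.p6), all from the minus strand of chromosome 12, and capitals mark GTTAAT, the core of the site of the liver factor HNF1, searched on both strands.
Serpina1a, chr12:103863620-103863719: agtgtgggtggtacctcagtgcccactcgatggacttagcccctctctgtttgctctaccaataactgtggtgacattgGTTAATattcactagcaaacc
Serpina1b, chr12:103738190-103738289: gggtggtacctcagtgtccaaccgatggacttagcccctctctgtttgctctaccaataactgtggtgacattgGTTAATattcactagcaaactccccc
Serpina1c, chr12:103904951-103905050: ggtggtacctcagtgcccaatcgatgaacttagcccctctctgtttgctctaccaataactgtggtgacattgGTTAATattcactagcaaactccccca
Serpina1d, chr12:103773634-103773733: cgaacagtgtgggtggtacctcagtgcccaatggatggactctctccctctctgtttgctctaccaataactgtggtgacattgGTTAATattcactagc
Serpina1e, chr12:103956898-103956997: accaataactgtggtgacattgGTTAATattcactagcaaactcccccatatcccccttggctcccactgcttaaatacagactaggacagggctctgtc
Each of the 5 holds a single match in its 250 upstream bases, and 6.43% of 32851 promoters of the table hold at least 1. Over those 250 bases Serpina1a and Serpina1c were 91.4% identical, and Serpina1d and Serpina1e, whose annotated starts lie at different distances from the shared stretch, 58.8%. A match of letters is a description and shows no binding.

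Markers of liver cells were measured beside these genes. Of 19 hepatocyte genes 14 were tested, 1 fell (Hpx, hemopexin, -1.07, adjusted p = 0.0224, and 0.0504 when blocked on the slide), 10 of the 14 differences were negative, and the median was -0.67. Their summed level, in multiples of the 75th percentile, ranged from 23.5 to 42.6 in Sham and from 9.82 to 30.8 in DJB. Most of that sum came from 2 genes that differed in opposite directions. Cyp2e1 stood at 4.93, 3.62 and 5 in Sham and 1.15, 2.84 and 1.48 in DJB. Ahsg stood at 1.64, 2.42 and 2.6 in Sham and 2.4, 4.31 and 3.71 in DJB. Ttr, Cps1 and Hamp were well above background on no array, and Alb (albumin) was so on 2 Sham arrays and no DJB array. Markers of skeletal muscle, smooth muscle and mesothelium were lower too, with sums that did not overlap. Sums of other tissue lists overlapped. Pancreas acinar markers gave 11.6 to 25.1 in Sham and 8.66 to 12.3 in DJB. Epididymis and testis markers gave 2.39 to 41.2 and 2.36 to 4.39, and keratinocyte and mammary markers 4.68 to 10.5 and 4.63 to 5.39. Skeletal muscle markers summed to 12.1 to 23.3 in Sham and 2.91 to 3.6 in DJB (4 of 11 tested fell, median -1.06), and smooth muscle markers to 268 to 380 and 103 to 129 (3 of 7 fell, median -0.87). Mesothelial markers summed to 124 to 191 in Sham and 27.1 to 77.3 in DJB (2 of 12 fell, all 12 differences negative, median -1.55). With the slide as a block Acta1, Pvalb and Acta2 of these 9 genes still passed. The part of any of these tissues in the clade A results was not tested. In bulk tissue, fewer cells of a type and less RNA per cell cannot be told apart.

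The Serpina3 genes are the mouse relatives of the human antichymotrypsin gene, which encodes an inhibitor of cathepsin G and mast cell chymase, and all 9 with a symbol-named probe were tested. Of these 1 fell and 8 differences were negative, with a median of -0.47. Serpina3a had levels of -3.7, -2.89 and -3.54 in Sham and -6.58, -5.93 and -6.98 in DJB. It was well above background on the 3 Sham arrays and on no DJB array. The probe thus met the filter through Sham alone, the group where it is high, and its pass is given as a description. The measured difference of -3.12 (SE 0.33, adjusted p = 0.0181) is given as at least 2.61-fold lower. This bound sets the Sham mean against the dimmest signal still well above background on each DJB array. With normexp background correction, whose offset draws the differences of dim probes toward 0, the difference was -0.15 and did not pass. Without Sham-1, Sham-2 or DJB-1 the adjusted p was 0.0797, 0.0554 and 0.0505. With the slide as a block it was 0.0473, and within the first slide the difference was -2.63 (adjusted p = 0.0804). A second, accession-named probe of Serpina3a was likewise well above background on the 3 Sham arrays and on no DJB array, and was at least 3.83-fold lower (adjusted p = 0.0121). That probe also met the filter through Sham alone, so the same limit holds for it.

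Serpina3c, which encodes a kallikrein-binding protein, stood at 4.31, 3.97 and 4.37 in Sham and 1.31, 2.36 and 3.25 in DJB. All DJB values were lower, and they spread over a wide range with DJB-1 the lowest. The difference of -1.91 (SE 0.47) did not pass (adjusted p = 0.0681). Serpina3m showed the same order of DJB arrays, with 5.26, 4.99 and 5.23 in Sham and 2.32, 3.72 and 4.18 in DJB (-1.75, SE 0.46, adjusted p = 0.0778). With normexp background correction both passed, at -1.88 (adjusted p = 0.0341) and -1.78 (adjusted p = 0.0343).

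Serpina3n, an acute phase inhibitor of granzyme B and elastase, stood at 4.32, 4.18 and 4.11 in Sham and 2.72, 4.18 and 4.38 in DJB. Its groups overlapped, and a single array, DJB-1, carried the difference of -0.44 (adjusted p = 0.539). Without that array the difference was 0.08. The same array had the lowest DJB levels of Serpina3c and Serpina3m, and also of the adipocyte genes Adipoq, at 6.96, and Plin1 (perilipin), at 4.7, where the other DJB arrays gave 5.91 and 6.25 for Plin1. Of the 12 adipocyte markers 10 differences were negative, 1 gene fell (Retn, resistin, -1.20, adjusted p = 0.0349, and 0.0641 with the slide as a block), and the median was -1.09. The summed level of the 12 was 3760 to 4230 in Sham and 2340 to 3530 in DJB. Its part in the Serpina3 values was not tested.

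**Figure D2:**
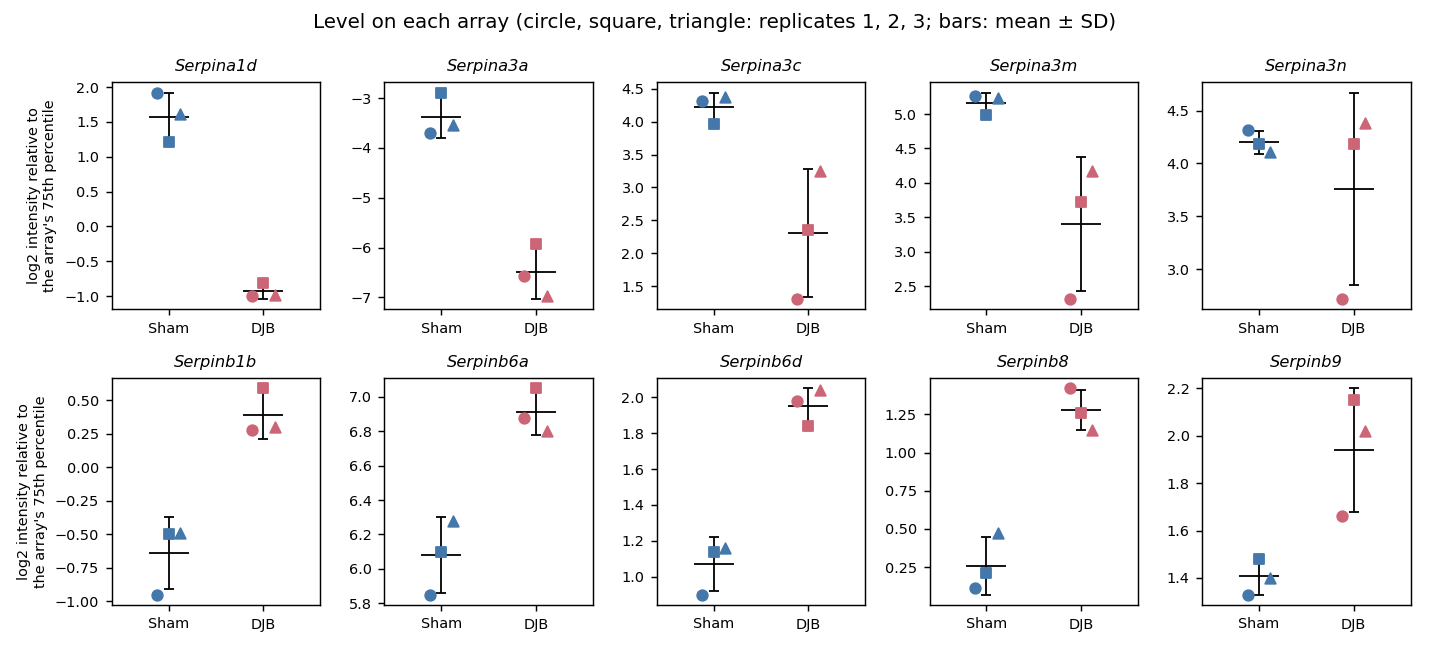
Level on each array (log2 intensity relative to the array's 75th percentile, vertical axes on separate scales) for 10 serpin genes in Sham and DJB, with the mean ± SD of 3 arrays. DJB-1, the circle, lies lowest of the DJB points in Serpina3c, Serpina3m and Serpina3n, while the 5 clade B genes have all DJB points above all Sham points.

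Serpina3k, the other well-known kallikrein-binding protein, gave different answers from its probes. The symbol-named probe stood at -1.56, -2.27 and -2.53 in Sham and -2.95, -2.38 and -2.43 in DJB (-0.47, adjusted p = 0.335). Its accession-named probe stood at 5.02, 4.58 and 5.03 in Sham and 1.9, 2.95 and 3.58 in DJB (-2.07, adjusted p = 0.0492). The groups overlapped on the first probe and lay apart on the second. The second probe shares a run of 36 bases with the accession-named probe of Serpina3c and of 33 bases with that of Serpina3m, and its values order the DJB arrays as those genes do. The other Serpina3 genes tested (Serpina3b, Serpina3f, Serpina3g and Serpina3j) had differences from -0.74 to 0.4 and overlapping groups.

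The promoters of Serpina3c and Serpina3n are shown because these copies are alike in sequence upstream of the start while their groups were apart in the first and overlapped in the second. The difference between the genes was not tested. The 250 bases before the start are from RefSeq (GRCm38.p6), on the minus and the plus strand of chromosome 12. Capitals mark the single GTTAAT, on the opposite strand, in Serpina3c. The start is that of 1 promoter entry per gene. The annotated genes span 104146907-104153929 (Serpina3c) and 104406646-104414334 (Serpina3n), so both stretches, and the identity given below, include bases inside the gene.
Serpina3c, chr12:104153873-104154122: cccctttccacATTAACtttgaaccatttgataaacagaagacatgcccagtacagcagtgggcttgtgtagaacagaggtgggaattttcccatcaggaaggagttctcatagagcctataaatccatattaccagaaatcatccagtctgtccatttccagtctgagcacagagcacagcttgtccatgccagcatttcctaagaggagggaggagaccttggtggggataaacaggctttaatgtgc
Serpina3n, chr12:104406458-104406707: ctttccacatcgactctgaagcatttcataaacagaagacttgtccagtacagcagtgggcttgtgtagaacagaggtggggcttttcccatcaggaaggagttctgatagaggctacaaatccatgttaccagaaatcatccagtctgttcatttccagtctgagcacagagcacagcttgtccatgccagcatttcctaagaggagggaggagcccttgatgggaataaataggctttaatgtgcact
The sequences were 90.5% identical over their alignment, whereas the promoters of Serpina3a and Serpina3c were 48.3% identical.

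Several clade A genes with known roles gave no test. Serpina12 (vaspin, named for its discovery in visceral fat), Serpina6 (the corticosteroid carrier of plasma), Serpina7 (a thyroxine carrier) and Serpina10 (the protein Z-dependent inhibitor) were well above background on no array with their symbol-named probes. Accession-named probes were tested for Serpina12 (-0.06, adjusted p = 0.952) and Serpina10 (-0.04, adjusted p = 0.893), and neither passed. Serpina5, the protein C inhibitor, was above background on 2 Sham arrays and no DJB array. Its accession-named probe stood at -3.55, -1.02 and -3.58 in Sham and -5.96, -5.68 and -5.55 in DJB, where it was not well above background, and did not pass (adjusted p = 0.0606). Serpina9, a serpin of germinal centre B cells, and the pseudogene Serpina4-ps1 differed by -0.06 and 0.42 with overlapping groups.

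Clade B genes lie in a group on chromosome 13 and another on chromosome 1. On chromosome 13, 8 of 13 were tested, 3 rose, and all 8 differences were positive, with a median of 0.81. The groups were separate in 7 of the 8, where 25.4% of all genes tested had separate groups with higher DJB values. All 8 stayed positive under each of the 4 other scalings. On chromosome 1, 7 of 12 were tested, 1 rose, 4 differences were positive and 3 negative, and the median was 0.13.

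Serpinb6a, a broad cytoplasmic inhibitor that includes cathepsin G and trypsin-like enzymes among its targets, stood at 5.85, 6.1 and 6.28 in Sham and 6.88, 7.05 and 6.8 in DJB. All DJB values were above all Sham values. The difference was 0.84 ± 0.15, or 1.78-fold (adjusted p = 0.0414). An accession-named probe of the gene rose by 0.75 (adjusted p = 0.0451). Serpinb6d, a paralog, stood at 0.9, 1.14 and 1.16 in Sham and 1.98, 1.84 and 2.04 in DJB, a difference of 0.88 ± 0.13 or 1.84-fold (adjusted p = 0.0291). Its groups were also apart. Its accession-named probe was well above background on no array (-7.36 to -6.48) and was not tested, so the call rests on 1 of 2 probes that disagreed on whether the gene was measured. Serpinb6b (0.69, adjusted p = 0.264) did not pass, and DJB-1 at 6.27 stood above the other DJB arrays at 5.02 and 5.08. Copies without a symbol-named probe were close in size, with 0.62 for Serpinb6c (adjusted p = 0.135) and 0.87 for Serpinb6e (adjusted p = 0.0512).

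Serpinb1b is a paralog of Serpinb1a, the mouse form of the neutrophil and monocyte elastase inhibitor. It stood at -0.95, -0.5 and -0.49 in Sham and 0.28, 0.59 and 0.3 in DJB, with the groups apart. The difference was 1.03 ± 0.18, or 2.05-fold (adjusted p = 0.0378). A second symbol-named probe, at 1.06 (adjusted p = 0.0724), and the accession-named probe, at 0.93 (adjusted p = 0.103), did not pass. Serpinb1a itself stood at 3.1, 3.77 and 3.98 in Sham and 4.54, 4.2 and 3.92 in DJB, with overlapping groups (0.61, adjusted p = 0.207). Serpinb1c (0.78, adjusted p = 0.0943) had separate groups and did not pass.

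Serpinb8, on chromosome 1, an inhibitor of furin and trypsin-like proteases, stood at 0.11, 0.21 and 0.47 in Sham and 1.42, 1.26 and 1.15 in DJB. The groups did not meet. The difference was 1.01 ± 0.14, or 2.02-fold (adjusted p = 0.0286). A second symbol-named probe, at 0.68 (adjusted p = 0.0553), and the accession-named probe, at 0.49 (adjusted p = 0.199), did not pass.

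The 4 rises were small and depended on the full set of arrays. With the slide as a block the adjusted p was 0.0682 for Serpinb1b, 0.0713 for Serpinb6a, 0.0549 for Serpinb6d and 0.055 for Serpinb8, although within the first slide and between the arrays of the second all 4 differences lay between 0.7 and 1.16 (adjusted p of 0.12 to 0.147 on the first slide alone). None passed when Sham-1, Sham-2, DJB-1 or DJB-2 was left out (adjusted p of 0.116 to 0.139, 0.0934 to 0.121, 0.0629 to 0.086 and 0.0872 to 0.11). Without Sham-3 Serpinb1b and Serpinb6a were lost (0.0556 and 0.05), and without DJB-3 Serpinb1b and Serpinb6a were lost (0.0561 for each).

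Serpinb9, the inhibitor of granzyme B that protects killer cells and their targets, stood at 1.33, 1.48 and 1.4 in Sham and 1.66, 2.15 and 2.02 in DJB. Its groups were apart and it did not pass (0.54, SE 0.16, adjusted p = 0.0923). Of the 7 genes named Serpinb9 to Serpinb9g, Serpinb9e was also tested (0.84, adjusted p = 0.109). Serpinb9b is an example of a gene whose probes disagreed on whether it was measured at all. Its symbol-named probe was well above background on no array and its accession-named probe on all 6, at 3.34, 4.47 and 3.53 in Sham and 4.6, 6.17 and 5.92 in DJB (1.79, SE 0.49, adjusted p = 0.0829).

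The clade B genes that did not follow the others lie on chromosome 1. Serpinb10, which is expressed in blood-forming tissue, stood at -3.77, -2.95 and -2.56 in Sham and -4.06, -5.12 and -4.5 in DJB, where 1 array was well above background. Its groups were apart in the opposite direction to its clade, and it did not pass (-1.46, SE 0.39, adjusted p = 0.0786). The difference was -0.12 with normexp, and its other 2 probes were well above background on no array. Serpinb2, an inhibitor of urokinase made by macrophages, stood at -2.89, -2.06 and -1.74 in Sham and -1.79, -2.07 and -2.43 in DJB with overlapping groups (0.14, adjusted p = 0.814). Serpinb5, the epithelial protein maspin, ranged from -5.95 to -2.47 in Sham and from -4.78 to -3.73 in DJB (0.13, SE 0.85, adjusted p = 0.933), an error too large to place it. Serpinb12 (0.94, adjusted p = 0.0869) had separate groups, and Serpinb3c and Serpinb11 overlapped.

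Markers of immune cells that express clade B serpins were measured on the same arrays. Of 14 macrophage genes all were tested, 5 rose (Cd68, Itgam, Lyz2, Gpnmb and Mmp12, by 0.89 to 1.63), 13 differences were positive, and the median was 0.61. Their summed level ranged from 1220 to 1780 in Sham and from 2300 to 2750 in DJB. Blocking on the slide left Mmp12 past the threshold (adjusted p = 0.0458) and not the other 4. Of 12 neutrophil genes 10 were tested and 1 rose (S100a9, 2.86, adjusted p = 0.0339, and 0.0581 with the slide as a block), 6 differences were positive and 4 negative, from -3.04 for Lcn2 (adjusted p = 0.153) to that of S100a9, and the summed level was 50.1 to 62.7 in Sham and 54.6 to 102 in DJB. Of 13 T and NK cell genes none passed limma's test (1 higher and 7 lower at an unadjusted p under 0.05), and 10 differences were negative with a median of -0.61. Their summed level was higher, at 50.8 to 74 in Sham and 87.9 to 125 in DJB. That sum was carried mostly by Thy1, at 5.2, 5.82 and 5.35 in Sham and 6.32, 6.74 and 6.32 in DJB, and does not describe the list. Of 9 B cell genes none passed limma's test (0 higher and 6 lower at an unadjusted p under 0.05), and all 9 differences were negative with a median of -1.70. The part of these cells in the clade B differences was not tested.

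Of the 11 genes of clades C to I, 10 were tested and none passed limma's test, 3 had an unadjusted p under 0.05 (Serpind1 and Serpini1 lower, Serpinf2 higher), and the median difference was -0.22. Serpine2 (protease nexin-1, an inhibitor of thrombin and urokinase) stood at 1.83, 1.83 and 2.17 in Sham and 1.37, 1.64 and 1.72 in DJB and had separate groups without passing (-0.36, adjusted p = 0.19). Serpine3 overlapped (-0.13, adjusted p = 0.765), and its difference turned to 0.1 with normexp background correction.

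Serpind1, heparin cofactor II, stood at -3.75, -3.72 and -4.03 in Sham and -5.43, -4.49 and -5.35 in DJB, where 1 array was well above background. Its groups were apart and the adjusted p was just above the threshold (-1.26, SE 0.27, adjusted p = 0.0535). With normexp background correction its difference was 0.02. Serpinc1, antithrombin, stood between -0.11 and 0.19 on all 6 arrays (0.04, SE 0.12, adjusted p = 0.868). Serpini1, the neuronal inhibitor neuroserpin, stood at -1.35, -1.65 and -1.38 in Sham and -2.01, -1.95 and -2.31 in DJB (-0.63, SE 0.15, adjusted p = 0.066). Its accession-named probe was well above background on no array (-7.38 to -6.03), so its probes disagreed on whether the gene was measured. Serpini2 was well above background on no array.

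Serpinf1, the secreted factor PEDF, stood at 7.6, 7.74 and 7.82 in Sham and 7.36, 7.61 and 7.64 in DJB, with a small difference and overlapping groups (-0.18, SE 0.13, adjusted p = 0.41). Serpinf2, alpha-2-antiplasmin, stood at -1.02, -0.7 and -1.22 in Sham and -0.12, -0.77 and -0.41 in DJB (0.55, adjusted p = 0.164), whereas its accession-named probe gave -0.69 (adjusted p = 0.377). Its direction was therefore not settled. Serping1, the C1 inhibitor, stood at 6.76, 6.9 and 7.11 in Sham and 6.5, 7.03 and 7.3 in DJB (0.02, SE 0.23, adjusted p = 0.956). Serpinh1, the collagen chaperone, stood at 6.01, 6.06 and 6.04 in Sham and 5.6, 5.87 and 5.82 in DJB, with separate groups (-0.27, SE 0.12, adjusted p = 0.19). Its accession-named probe, at 3.2, 3 and 3.21 in Sham and 2.33, 2.36 and 2.29 in DJB, fell by 0.81 (adjusted p = 0.0283), and with normexp background correction the symbol-named probe passed as well (-0.33, adjusted p = 0.0352).

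The accession-named probes allow a comparison within genes. There are 60 of them for serpin genes, 53 for members and 7 for genes without a symbol-named probe. Of the 38 members tested, 7 (Serpinb6d among them) had an accession-named probe that was not tested and 3 had none. In the other 28 both kinds were tested, 22 had the same sign on both, and 8 differed by more than 0.5, with the widest gap, 1.6, in Serpina3k. With the brighter of the 2 kinds standing for each gene, 45 members were tested, 4 fell (Serpina1c, Serpina1d, Serpina3a and Serpina3k) and 2 rose (Serpinb6a and Serpinb6d). This choice was made after the values were seen.

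**Figure D3:**
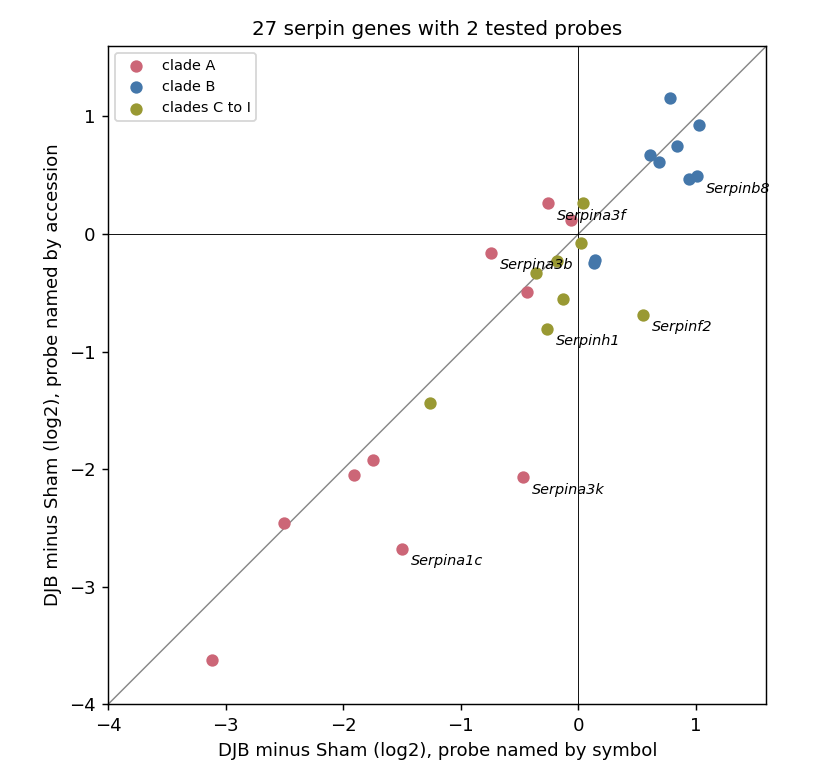
Difference between DJB and Sham (log2) on the symbol-named probe (horizontal) and on the accession-named probe (vertical) for 27 serpin genes with both tested; the grey line marks equality. The named genes differ by more than 0.5 between their probes, Serpina3k most at -0.47 against -2.07. Serpina3a, at -3.12 against -3.62, has a gap above 0.5 only before rounding and is not named.

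The proteases that serpins inhibit were described by lists of genes. Of 21 plasminogen, coagulation and contact proteases and their receptor tested, 1 rose and 1 fell, with a median of -0.11. The gene that rose was Plaur, the urokinase receptor, at 4.21, 4.75 and 4.76 in Sham and 5.65, 5.38 and 5.58 in DJB (0.96, adjusted p = 0.0456, and 0.0729 with the slide as a block). The gene that fell was Htra1, a secreted serine protease (-1.32, adjusted p = 0.0157). The plasminogen activators Plat (-0.11, adjusted p = 0.691) and Plau (0.13, adjusted p = 0.766), overlapped between the groups. None of 8 complement serine proteases passed limma's test (median -0.35, with 3 lower and 0 higher at an unadjusted p under 0.05). Counts over the lists depended on the arrays and the settings. They cover 8 lists, those of proteases and those of inhibitors, receptors, collagens and inducers described below. Over these 8 lists 5 genes were called higher and 8 lower, and 0 in either direction without Sham-1, Sham-2 or DJB-2. Without Sham-3 the counts were 0 and 11, without DJB-1 they were 1 and 3, and without DJB-3 they were 0 and 4. Other settings gave more calls, with 21 higher and 12 lower under a trended robust prior, 14 and 13 with normexp, 14 and 9 with the mean of a gene's probes, and 12 and 9 where all 6 arrays had to be well above background.

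None of 13 granule serine proteases passed limma's test either (6 higher and 0 lower at an unadjusted p under 0.05), and the median was 0.89. Separate groups with higher DJB values were seen in 5 of the 13, where 25.4% of all genes tested had them. Ctsg (cathepsin G) stood at 0.66, 1.85 and 2.2 in Sham and 3.32, 2.22 and 2.8 in DJB (1.21, adjusted p = 0.154), and Elane (neutrophil elastase) was well above background on 1 array of each group and not tested. Mast cell markers, which share chymases and tryptases with this list, had a median of 0.89 over 9 genes and none passed. Of 13 cathepsins of lysosomes and related enzymes, 3 rose, Ctsd (0.65, adjusted p = 0.0378), Ctsl (0.53, adjusted p = 0.0491) and Ctsz (0.70, adjusted p = 0.0428), and Ctsw, the cathepsin of killer cells, fell (-0.89, adjusted p = 0.0361). Neither these 3 rises nor the fall of Ctsw (adjusted p = 0.0598) passed with the slide as a block, and 0 genes of the list were called higher with quantile scaling or with the authors' log2 values.

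Other genes around the serpins gave few calls. Of 26 protease inhibitors outside the family 1 fell, Stfa3, a stefin that inhibits cathepsins (-1.24, adjusted p = 0.0322, and 0.0609 with the slide as a block), and Timp1 did not pass (0.98, adjusted p = 0.099). Among 16 receptors and partners 1 fell, Vldlr, a lipoprotein receptor that also takes up serpin and protease complexes, from 5.46, 5.26 and 5.53 in Sham to 4.07, 3.97 and 4.29 in DJB (-1.31, adjusted p = 0.018). Lrp1, the main clearance receptor, had separate groups and did not pass (0.71, adjusted p = 0.0563), and Pnpla2, the lipase to which PEDF binds, overlapped (-0.23, adjusted p = 0.553). Of 22 collagens and processing enzymes 1 rose, the lysyl hydroxylase Plod1 (0.61, adjusted p = 0.0462, and 0.0755 with the slide as a block), with a median of 0.44, while Col1a1 did not pass (0.64, adjusted p = 0.0961).

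Of 21 inducers and readouts of serpin transcription 4 fell, with a median of 0.24. They were Orm1, an acute phase protein, from 4.68, 4.14 and 4.64 in Sham to 0.69, 1.6 and 1.87 in DJB (-3.10, adjusted p = 0.0183), Tgfb3 (-0.83, adjusted p = 0.0361), the TGF-beta inhibitor Smad7 (-0.70, adjusted p = 0.0394) and the cytokine Lif (-1.26, adjusted p = 0.0357). With the slide as a block Orm1 passed (adjusted p = 0.0473) and the other 3 did not. Tgfb1 had separate groups and did not pass (0.74, adjusted p = 0.073).

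**Figure D4:**
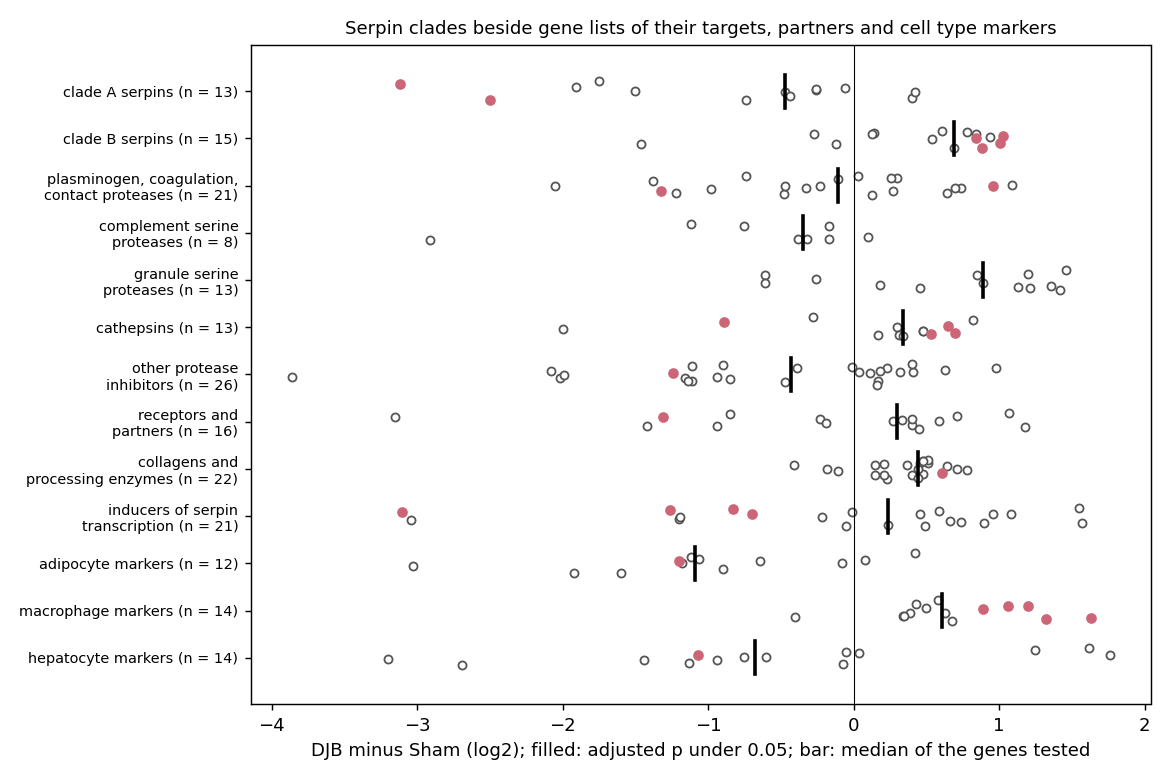
Difference between DJB and Sham (log2, horizontal axis) for each tested gene of clade A, clade B and 11 gene lists; filled points passed the test and black bars are medians. The median is -0.47 in clade A, 0.69 in clade B, 0.89 in granule proteases, 0.61 in macrophage markers and -1.09 in adipocyte markers.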

How the data were processed

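Total RNA of 3 Sham and 3 DJB samples was hybridised to 1-colour Agilent arrays, and the authors scanned them with Feature Extraction 12.0.3.1, per the file headers, whose genome build reads mm9. The deposited scanner files hold processed, mean and background intensity per spot on a linear scale, background-subtracted but not scaled between arrays. The authors' deposited log2 table served as an alternative; every column matched its own array most closely (r of at least 0.99934), and its medians of 4.546 to 4.558 do not state its scaling. Per the submitters' processing notes a tool used was limma, in a version not given in the sources used here.

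Here log2 processed intensity minus each array's 75th percentile was computed over 150305 non-control probes, with 18 to 25 outlier spots per array set to missing. DJB was compared with Sham by limma 3.58.1 (R 4.3.3; lmFit, eBayes, two-sided, no covariates), Benjamini-Hochberg adjusted over 99431 probes. An exact permutation test of 3 against 3 cannot go below 0.1 and was not used. The step was tested on simulated data. Figures used Python 3.11.15 and matplotlib 3.10.9; promoters were aligned with biopython 1.88.

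Genes were named by the files' symbols; 60 accession-named probes were matched through RefSeq (GRCm38.p6), which held promoters for 46 of the 56 genes. Described genes were those that passed, the member of each clade with the largest difference among those with separate groups, and a list of textbook members; called genes and a few fixed ones stand for other lists. Members and lists were chosen with earlier results of these data known, and the motif, the printed sequences, the accession-named probes and the other genes named after seeing the values. Close paralogs were judged by shared probe bases, a choice made after seeing the files, in place of the planned protein identity, since protein sequences were not used here. One gene of the family is counted but not reported here. The series' design text describes another experiment and was not used. Alternatives covered background correction, scaling, probe filter, variance prior, slide, replicate block, probe choice and each array left out.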

Additional observations from a re-analysis of the deposited data

How the results depend on the processing

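The count of serpins lower in DJB was 2 and became 4 with normexp background correction, 4 with a trended robust prior, 5 with the mean of a gene's probes, 4 with the brighter of symbol-named and accession-named probes, and 0 on the first slide alone or with a replicate block. Over all genes normexp raised the calls too, from 341 higher and 792 lower to 1060 and 1551. Counts over all genes under the other settings just named are not given. The count higher was 4 and became 0 without a filter on dim probes, with the slide as a block, on the first slide alone or with a replicate block, and 2 with the brighter probe. The median difference of -0.13 became 0.03 with normexp, -0.02 with median scaling, 0.01 without the filter, -0.02 where all 6 arrays had to be well above background, and -0.04 with the brighter probe. Leaving out each array in turn gave 1 to 3 lower, 0 to 3 higher, medians of -0.19 to 0.02 and 20 to 22 genes with separate groups. The count with separate groups, 19, stayed between 15 and 22 over the alternatives. Of the 6 genes that passed, quantile scaling, median scaling, the authors' log2 values, the trended prior and the mean of probes each kept 6. Serpina1d was lost only on the first slide alone and with the replicate block.

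Replicate numbers did not pair the samples: deviations from the group means correlated at -0.18, -0.12 and -0.29 between same-numbered arrays, and the replicate block left none of the 6 calls.

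Of 470 single-gene values over the alternatives 444 kept their sign, and the reversed ones belong to genes that did not pass. With normexp Serpind1 was 0.02, Serpine3 0.1 and Serping1 -0.03. Quantile scaling gave Serpine3 0.01 and Serping1 -0.12, and the authors' log2 values 0 and -0.13. On the first slide Serpinb5 was -0.27, Serpine3 0.1 and Serping1 -0.16. The mean of probes gave Serpinc1 -0.02, and the brighter probe gave Serpinb5 -0.25. Leaving out each array in turn gave values on both sides of 0 for Serpinb2 (-0.19 to 0.38), Serping1 (-0.15 to 0.25), Serpinb5 (-0.66 to 1.08), Serpinc1 (-0.03 to 0.12), Serpine3 (-0.28 to 0.11) and Serpina3n (-0.75 to 0.08). The causes were not tested. Signals near background limit Serpina3a, Serpind1, Serpina1c, Serpinb10 and Serpinb5.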
